A study of Saccharomyces cerevisiae with 4 samples.

Results

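The 8 genes described here encode the main protein-folding machinery of the yeast mitochondrial matrix. They were taken by their systematic names from the gene counts, as HSP60, HSP10, SSC1, ECM10, MDJ1, MGE1, HSP78 and ZIM17, 8 of 7126 features. Messenger RNA of baker’s yeast (Saccharomyces cerevisiae) was read in 2 wild-type libraries and in 2 libraries of xpo1-1 mex67-5 cells, which carry mutations in the export receptors Xpo1 (encoded by CRM1) and Mex67. Cells of both strains grew overnight at 25 °C and spent 1 h at 37 °C before harvest, so every library, control included, comes from heat-shifted cells. The study was set up to compare splicing in the strains, and none of the 358 intron records in the files belongs to these 8 genes. Strain background and the number of clones or cultures behind each group are not stated in the labels. The p-values therefore rest on differences between libraries that may be no more than technical.

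Proteins bound for the matrix are made in the cytosol and cross both mitochondrial membranes unfolded. The Hsp70 Ssc1 pulls them in as part of the import motor and then helps them fold. Its J-domain partner Mdj1 stimulates its ATPase, Mge1 exchanges its nucleotide, and Zim17 (also called Hep1) keeps the Hsp70 itself from aggregating. Many imported proteins go on to the chaperonin, a barrel of Hsp60 capped by a lid of Hsp10. Hsp78, a relative of the cytosolic disaggregase Hsp104, works with Ssc1 to recover proteins after heat. Ecm10 is a close paralog of Ssc1.

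In the xpo1-1 mex67-5 strain these 8 mRNAs did not move together. MDJ1, HSP78 and SSC1 rose 26.7-fold, 19.4-fold and 6.43-fold. MGE1, ECM10, ZIM17 and HSP10 fell 2.53-fold, 1.75-fold, 1.66-fold and 1.26-fold. HSP60 was at the same mean level in both strains within its spread. All 8 genes passed the filter on low counts. By edgeR's quasi-likelihood test, with Benjamini-Hochberg adjustment over all genes tested and a threshold of 0.05, 3 of the 8 were higher and 4 lower. Over all 6563 genes tested, 93.1% were called, 46.8% higher and 46.3% lower, so the number of calls among the 8 is near the background. With a log2 change of at least 1 also required, 3 of the 8 were higher (27.8% of all genes tested) and 1 was lower (25.5%). The median log2 change was -0.17 for the 8 genes and 0.01 for all genes tested, and -0.066 and 0.12 with upper quartile scaling.

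The upstream sequences of the 3 genes that rose and of both chaperonin genes are shown because Hsf1 and Msn2/Msn4, the factors behind the yeast heat shock and general stress responses, bind known short motifs. Each stretch runs from 300 to 100 bases before the start codon, 5′ to 3′ on the strand of the gene, from the RefSeq genome, build R64. Capitals mark the fixed letters of the motifs searched. The MDJ1 stretch reaches into the neighbouring open reading frame YFL015C, which ends 232 bases before MDJ1.
HSP78, chrIV:974343-974543, minus strand: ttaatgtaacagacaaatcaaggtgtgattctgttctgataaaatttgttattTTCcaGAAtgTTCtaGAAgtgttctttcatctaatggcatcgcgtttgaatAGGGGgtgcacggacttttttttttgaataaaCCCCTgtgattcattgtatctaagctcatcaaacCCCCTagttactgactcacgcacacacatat
MDJ1, chrVI:106336-106536, minus strand: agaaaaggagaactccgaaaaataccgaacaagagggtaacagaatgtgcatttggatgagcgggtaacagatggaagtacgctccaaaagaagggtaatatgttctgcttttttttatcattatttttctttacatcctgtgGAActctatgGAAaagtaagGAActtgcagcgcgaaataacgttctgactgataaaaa
SSC1, chrX:521702-521902, minus strand: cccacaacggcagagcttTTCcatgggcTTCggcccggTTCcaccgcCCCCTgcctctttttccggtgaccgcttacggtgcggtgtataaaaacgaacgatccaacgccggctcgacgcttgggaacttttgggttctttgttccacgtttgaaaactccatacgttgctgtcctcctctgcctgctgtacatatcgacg
HSP60, chrXII:665102-665302, minus strand: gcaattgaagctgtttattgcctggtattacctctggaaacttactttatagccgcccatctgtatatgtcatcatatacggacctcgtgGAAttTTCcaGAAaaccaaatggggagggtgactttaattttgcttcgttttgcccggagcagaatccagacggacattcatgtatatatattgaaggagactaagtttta
HSP10, chrXV:370944-371144, minus strand: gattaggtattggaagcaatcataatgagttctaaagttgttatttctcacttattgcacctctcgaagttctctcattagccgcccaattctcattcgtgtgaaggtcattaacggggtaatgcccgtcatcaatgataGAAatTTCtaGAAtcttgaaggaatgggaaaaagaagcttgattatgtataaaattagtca

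The motifs were searched on both strands, in windows from 250 bases before to 50 bases after the start codon of each gene, and their matches overlap where a longer motif holds a shorter one. The heat shock element was taken as units of GAA and its complement TTC. Its paired forms GAANNTTC and TTCNNGAA were found in 11.8% and 12.9% of 6001 such windows over the genome. Its form of 3 contiguous units, GAA, TTC and GAA with 2 bases between them (TTC, GAA and TTC on the other strand), was found in 0.78%. Of the 8 genes, HSP78, HSP60 and HSP10 held that form. HSP60 had it from -210 to -198 and HSP10 from -160 to -148, counted from the start codon. In HSP78 a pair of overlapping matches ran from -247 to -230, so that 4 units follow each other. HSP60 also held a GAANNTTC from -44 to -37.

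MDJ1 and SSC1, which rose, held no contiguous form in that window. A stepped form, with 3 TTC units facing the same way and 7 bases between them, and a wider window of 500 bases before the start codon were added after the first search. MDJ1 held the stepped form from -157 to -135 and SSC1 from -282 to -260, and 2.10% of 6000 such wider windows over the genome held it. A gapped form, also added, was found only in HSP78, over the same letters as its contiguous form. The stress element CCCCT occurred 3 times upstream of HSP78, at -196, -164 and -130, and once upstream of ECM10 at -206, against 21.6% of all windows from 250 before to 50 after the start codon. In the wider window MDJ1 had it at -372 and -345, SSC1 at -253 and ZIM17 at -254, against 34.1% of all such windows. The MDJ1 matches lie inside the reading frame YFL015C and the ZIM17 match inside STB1, whose coding sequences begin or end 232 and 230 bases before the start codon. MGE1 held none of the motifs in either window. These matches describe letters only, and binding was not measured.

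**Figure D1:**
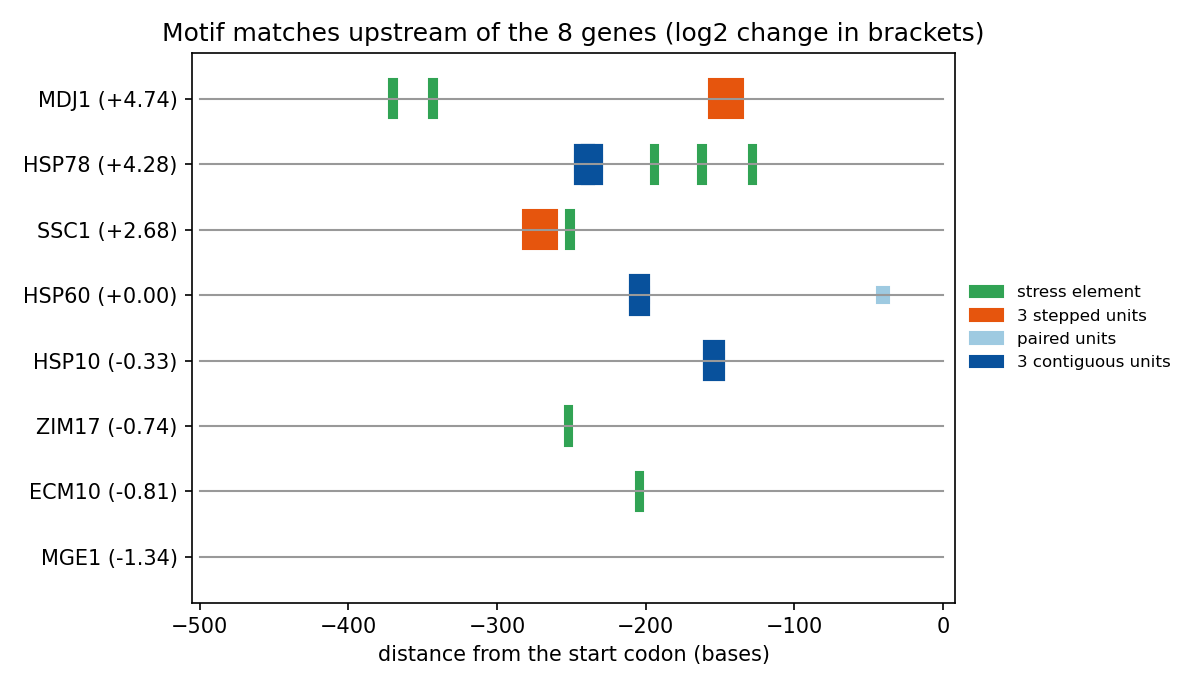
Motif matches in the 500 bases before the start codon of each of the 8 genes (horizontal axis, bases), with genes ordered from the highest to the lowest log2 change, given in brackets. Dark blue boxes mark 3 contiguous heat shock units, light blue a pair of units, orange 3 stepped units and green the stress element CCCCT. HSP78, HSP60 and HSP10 hold the contiguous form, and MGE1 has no match.

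Levels are given as reads per 1000000 of the scaled library (CPM), which is a share of the library, so a change in total mRNA per cell would not be seen. Less RNA per cell and fewer cells that make it cannot be told apart. The libraries held 49321384 to 62205252 reads assigned to genes. The 8 genes together took 0.422% and 0.446% of the reads of the wild-type libraries, and 2.23% and 2.25% of those of the mutant. In the wild type HSP60, HSP10 and SSC1 made up most of these reads. In the mutant SSC1 (45.6% and 45.0%), MDJ1 (23.7% and 24.3%) and HSP78 (21.6% and 21.7%) did. The fewest reads for any of the 8 genes were 714, for ECM10. Every window of 50 bases, the read length, in the coding sequences of the 8 genes occurred only once in the genome, and no other annotated RefSeq gene overlapped them. The files also list a feature YEL030C-A, which has no RefSeq entry, with 8 to 23 reads in a library; whether it shares reads with ECM10 (YEL030W) is not known. As for the mutated receptors, MEX67 was at 1925 ± 30.9 CPM in mutant libraries and 154 ± 3.25 in wild-type ones (SD, n = 2), and CRM1 at 189 ± 1.94 and 219 ± 2.57.

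**Figure D2:**
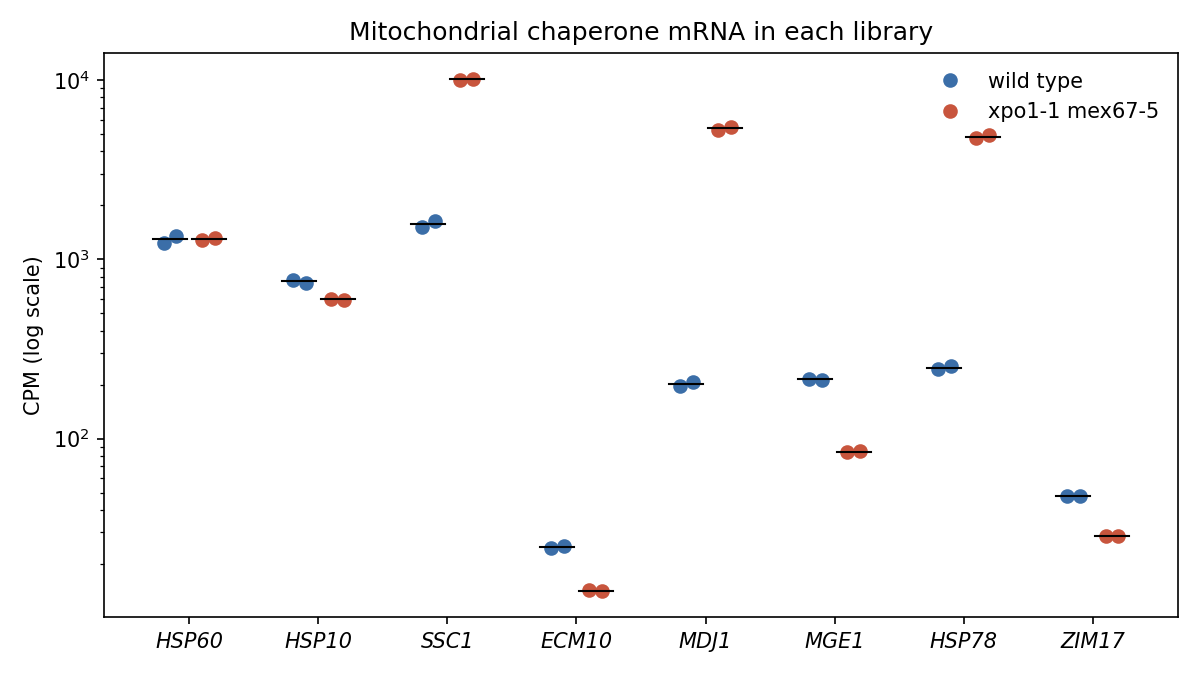
CPM (vertical axis, log scale) of each of the 8 genes in the 2 wild-type libraries (blue) and the 2 xpo1-1 mex67-5 libraries (red); points are libraries and black lines group means. SSC1, MDJ1 and HSP78 lie far higher in the mutant, HSP60 overlaps, and the other 4 lie lower in the mutant.

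The chaperonin subunits differed little between the strains. HSP60 (YLR259C, chromosome XII, 663284 to 665002) was at 1237 and 1352 CPM in the wild-type libraries and at 1275 and 1312 CPM in the mutant. The mutant values lay between the wild-type ones, while the groups did not overlap in the other 7 of the 8 genes or in 96.4% of all genes tested. Its log2 change was -0.0008 (SE 0.04), with a 95% interval of -0.10 to 0.09 and an edgeR adjusted p of 0.99. Upper quartile scaling moved the log2 change to 0.10, with an adjusted p of 0.047. It moved the median of all genes tested to 0.12 as well.

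HSP10 (YOR020C, chromosome XV, 370524 to 370844) was at 766 and 740 CPM in the wild-type libraries and at 604 and 592 CPM in the mutant. Both mutant libraries were below both wild-type libraries. Its log2 change was -0.33 (SE 0.04; edgeR adjusted p 1.7e-07). Hsp60 and Hsp10 act as a complex, so the ratio of their reads per base of coding sequence was followed within each library. It was 0.301 and 0.341 in wild-type libraries and 0.394 and 0.414 in the mutant, 1.26-fold higher in the mutant. The groups did not overlap, but the wild-type libraries were 0.18 apart on the log2 scale against a change of 0.33.

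SSC1, the gene of the main matrix Hsp70, was the most abundant of the 8 by reads in every library and rose strongly. SSC1 (YJR045C, chromosome X, 519638 to 521602) was at 1512 and 1631 CPM in the wild-type libraries and at 10039 and 10168 CPM in the mutant. Its log2 change was 2.68 (SE 0.05; edgeR adjusted p 2.7e-18), above that of 91.6% of genes tested. By reads it ranked 77 and 63 among all features in the wild-type libraries and 10 and 11 in those of the mutant.

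Its paralog went the other way. ECM10 (YEL030W, chromosome V, 94644 to 96578) was at 24.5 and 25.3 CPM in the wild-type libraries and at 14.3 and 14.1 CPM in the mutant, with no overlap. Its log2 change was -0.81 (SE 0.06; edgeR adjusted p 5.7e-10). Per base of coding sequence, SSC1 had 60.7 and 63.5 times the reads of ECM10 in the wild type, and 691 and 710 times in mutant libraries. SSQ1, a further mitochondrial Hsp70 that serves iron-sulfur cluster assembly, rose 2.38-fold, from 67.5 ± 0.955 to 161 ± 3.17 CPM (SD, n = 2; edgeR adjusted p 1.0e-15).

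The partners of the matrix Hsp70 split. MDJ1 (YFL016C, chromosome VI, 104701 to 106236), the J-domain partner, was at 196 and 207 CPM in the wild-type libraries and at 5228 and 5496 CPM in the mutant. With a log2 change of 4.74 (SE 0.05; edgeR adjusted p 3.0e-21) it changed the most of the 8. It moved from rank 1022 and 946 by reads in the wild type to rank 21 in both mutant libraries. MGE1 (YOR232W, chromosome XV, 774573 to 775259), the nucleotide exchange factor, was at 216 and 212 CPM in the wild-type libraries and at 84.6 and 84.9 CPM in the mutant. It fell in the mutant by 1.34 on the log2 scale (SE 0.04; edgeR adjusted p 2.6e-16). MDJ1 and MGE1 were thus at similar CPM in the wild type and far apart in the mutant. ZIM17 (YNL310C, chromosome XIV, 51907 to 52431), the Hsp70 escort, was at 47.9 and 47.6 CPM in the wild-type libraries and at 28.8 and 28.6 CPM in the mutant. Its log2 change was -0.74 (SE 0.05; edgeR adjusted p 4.8e-11).

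**Figure D3:**
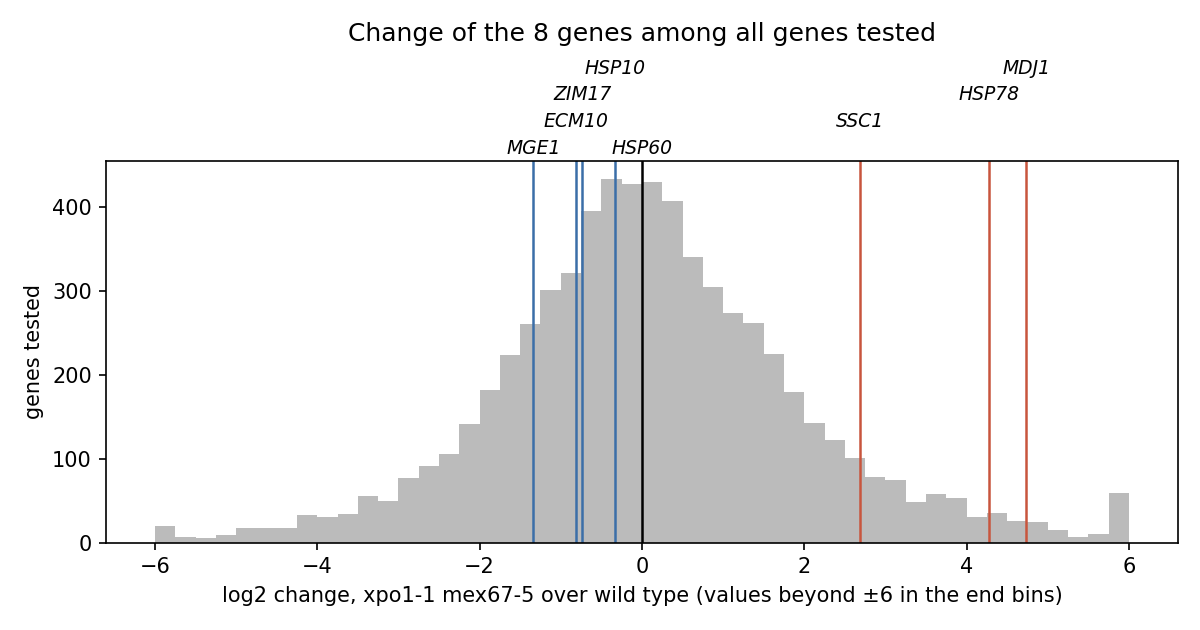
Number of genes (vertical axis) by log2 change in the mutant over the wild type (horizontal axis) for all 6563 genes tested, with lines at the 8 genes. MDJ1, HSP78 and SSC1 lie in the upper tail, HSP60 in the middle, and HSP10, ZIM17, ECM10 and MGE1 in the lower part of the main body.

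Ratios within a library do not depend on how libraries are scaled. Per base of coding sequence, SSC1 had 2.44 and 2.69 times the reads of MGE1 in the wild-type libraries and 41.5 and 41.9 times in the mutant, a 16.3-fold rise of the ratio. Against ZIM17 the ratio was 8.43 and 9.15 in wild-type libraries and 93.2 and 94.9 in the mutant, a 10.7-fold rise. Against MDJ1 it went down, from 6.05 and 6.17 in the wild type to 1.5 and 1.45 in the mutant. By mRNA, the J-domain partner thus gained on the Hsp70, and the exchange factor and the escort lost. Protein levels were not measured. SSC1 over HSP60 was 1.07 and 1.06 in wild-type libraries and 6.89 and 6.78 in the mutant. For each of these 4 ratios the change was many times larger than the difference between libraries of a group, which was at most 0.14 on the log2 scale. With 2 libraries against 2, an exact permutation test over samples cannot give a p below 0.333, and the ratios are given as a description.

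HSP78 was the only other of the 8 genes to rise. HSP78 (YDR258C, chromosome IV, 971808 to 974243) was at 245 and 253 CPM in the wild-type libraries and at 4753 and 4908 CPM in the mutant. Its log2 change was 4.28 (SE 0.05; edgeR adjusted p 3.5e-21). HSP104, its cytosolic relative, rose 32.1-fold, from 796 ± 18.4 to 25564 ± 1108 CPM (SD, n = 2; edgeR adjusted p 8.4e-21). Per base of coding sequence, HSP78 over HSP104 was 0.350 in both wild-type libraries and 0.215 and 0.209 in the mutant.

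**Figure D4:**
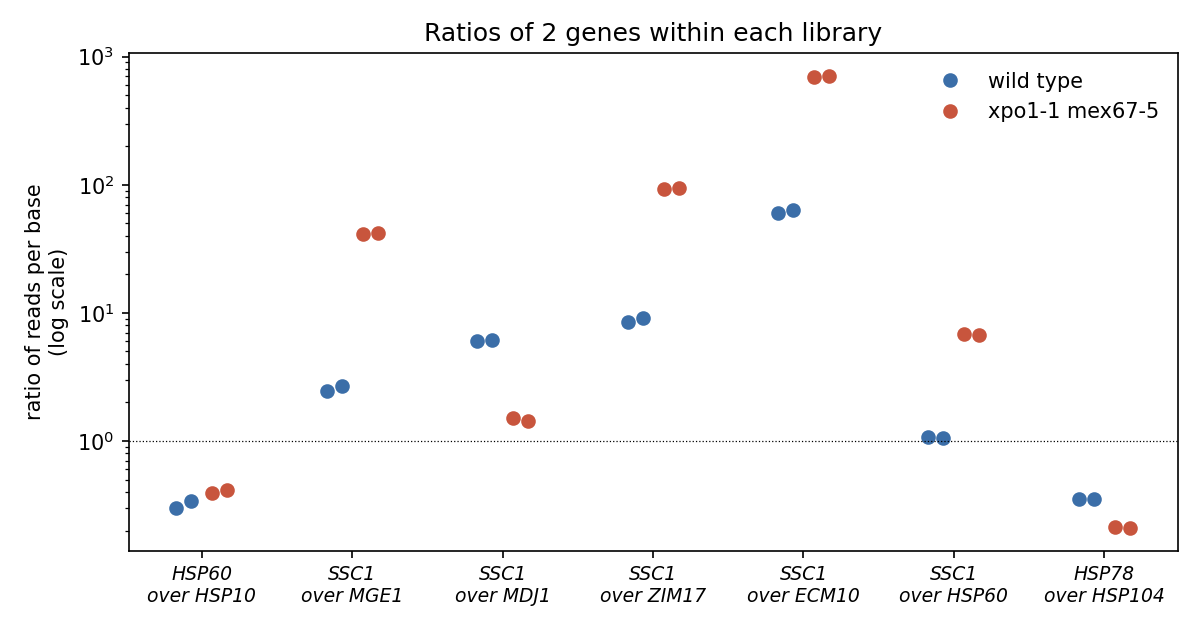
Ratio of reads per base of coding sequence (vertical axis, log scale) for pairs of genes within each wild-type (blue) and xpo1-1 mex67-5 (red) library; the dotted line marks equal reads per base. SSC1 gains on MGE1, ZIM17, ECM10 and HSP60 in the mutant and loses to MDJ1.

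The order of the 8 genes by level per length changed between the strains. In CPM per 1000 bases of coding sequence, HSP10 was highest in the wild type at 2347 ± 57.6 (SD, n = 2), followed by SSC1 at 800 ± 42.6 and HSP60 at 753 ± 47.4, whose libraries overlapped. MGE1 (312 ± 4.58), MDJ1 (131 ± 5.12), HSP78 (102 ± 2.31), ZIM17 (91.0 ± 0.427) and ECM10 (12.9 ± 0.277) came next, each with no overlap with its neighbours in the order. In the mutant SSC1 was highest at 5142 ± 46.4, then MDJ1 at 3491 ± 124 and HSP78 at 1983 ± 45.0. HSP10 (1864 ± 25.6) and HSP60 (753 ± 15.2) came below these, and MGE1, ZIM17 and ECM10 were lowest, with no overlap between neighbours in that order. The lengths are those of RefSeq coding sequences. Whether the counted features also held untranslated parts is not known from the labels or files, which bears most on the short HSP10.

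Other chaperones of the mitochondrion changed less than MDJ1, HSP78 and SSC1. Of 9 further chaperones and assembly factors, 7 were higher (46.8% of all genes tested) and 1 lower (46.3%), with a median log2 change of 0.57. TCM62, which is related to Hsp60 and assists the assembly of succinate dehydrogenase, rose 2.45-fold. MCX1, a mitochondrial relative of bacterial ClpX, rose as well (log2 0.81; edgeR adjusted p 3.4e-13). CPR3, the mitochondrial cyclophilin, fell 3.61-fold, from 204 ± 2.78 to 56.5 ± 2.73 CPM (SD, n = 2; edgeR adjusted p 1.5e-17). ATP11, a chaperone of the F1 part of the ATP synthase, was at 97.1 ± 0.760 and 93.6 ± 2.28 CPM and was not called (edgeR adjusted p 0.18).

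Genes of the import machinery that delivers proteins to the matrix Hsp70 were mostly lower. Of 9 genes of the presequence translocase TIM23 and its motor, 8 fell (46.3% of all genes tested) and 0 rose (46.8%), with a median log2 change of -1.49. TIM21 fell 7.53-fold, from 124 ± 0.313 to 16.4 ± 0.319 CPM (SD, n = 2; edgeR adjusted p 5.5e-20), and TIM23, the channel subunit, was at 270 ± 1.22 CPM in wild-type libraries and 66.4 ± 0.337 in mutant ones. Among direct partners of Ssc1 in the motor, TIM44, which tethers it to the channel, fell 2.82-fold. PAM18, the J-domain protein of the motor, fell 2.57-fold, and PAM16, its regulator, 6.84-fold. PAM17 was at 113 ± 2.06 and 108 ± 2.57 CPM and was not called (edgeR adjusted p 0.096). The mRNAs of the Hsp70 and of its matrix J-domain partner were thus higher where most of those for the membrane-bound part of the motor were lower.

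In the outer membrane, 8 of 11 genes of the TOM and SAM complexes fell (46.3% of all genes tested), with a median log2 change of -0.89. These were all 8 TOM genes measured, with TOM5 down 3.91-fold and TOM40, the pore, down 2.49-fold. The 3 SAM genes, which insert barrel proteins into the outer membrane, rose (46.8% of all genes tested), SAM50 by 1.90-fold. Of 10 genes of the TIM22 complex, the small TIM proteins and the MIA pathway, 8 fell (46.3% of all genes tested) and 2 rose (46.8%). Their median log2 change was -0.56. TIM10, a small TIM chaperone of the intermembrane space, fell 5.11-fold and TIM22, the carrier translocase, 3.55-fold, while TIM54 rose 1.96-fold and TIM18 also rose (log2 0.73).

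Proteases and prohibitins were lower in 10 of 15 genes (46.3% of all genes tested) and higher in 5 (46.8%), with a median log2 change of -0.41. PRD1, a peptidase, fell 2.66-fold. PIM1, the Lon protease of the matrix, which degrades misfolded proteins alongside the Hsp70 system, fell 1.66-fold (225 ± 0.636 to 136 ± 1.15 CPM; SD, n = 2). ICP55, which trims imported proteins, rose 2.54-fold and YTA10, a subunit of the inner membrane AAA protease, 2.01-fold, while its partner YTA12 fell (log2 -0.41). OCT1, YME1 and IMP1 rose by less (log2 0.28 to 0.55). Of 11 genes of iron-sulfur cluster assembly, which Ssq1 and its J-domain partner Jac1 serve, 6 fell and 4 rose, counts near those shares. Their median was -0.26, which became -0.174 without wild-type replicate 1 and -0.161 with upper quartile scaling. YFH1, the yeast frataxin, fell 2.78-fold and ISD11 2.61-fold, while ISA1 rose 3.46-fold and YAH1, a ferredoxin, 3.17-fold. NFS1 and ISU1 rose by less (log2 0.68 and 0.41).

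**Figure D5:**
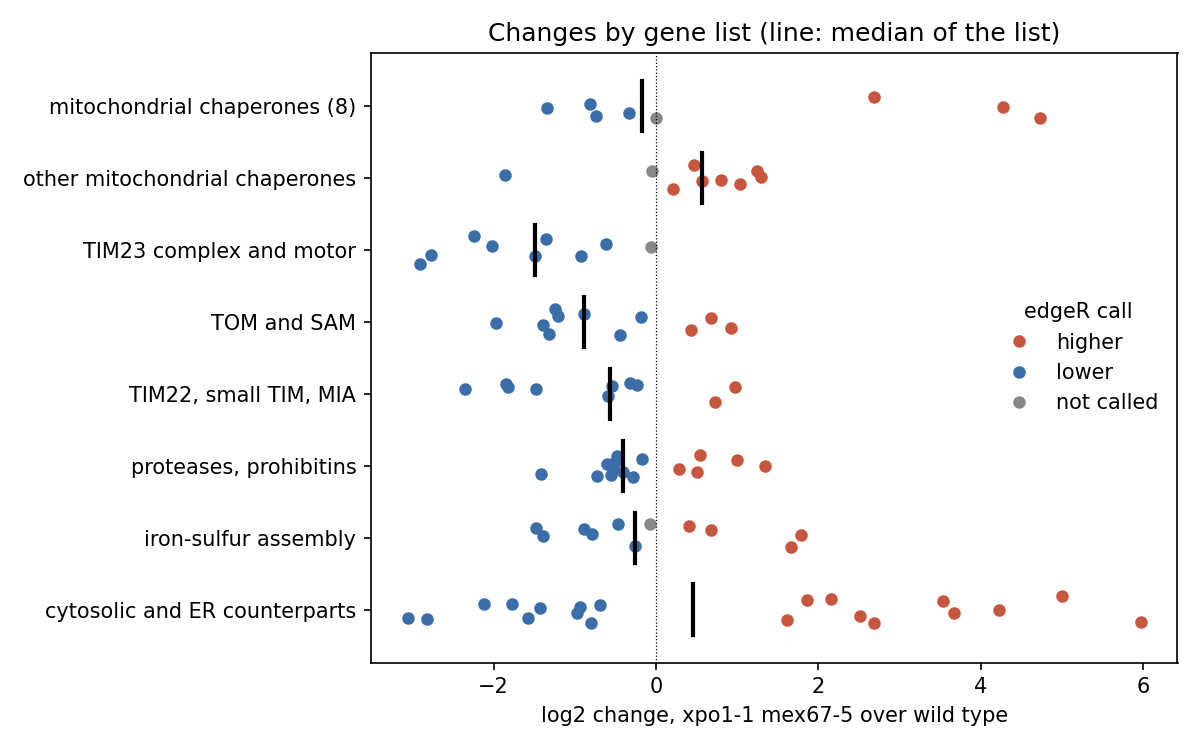
Log2 change in the mutant over the wild type (horizontal axis) of each gene, by list, coloured by edgeR call, with the median of each list as a black line; vertical scatter within a list has no meaning. The presequence translocase list has no gene called higher, and the cytosolic and endoplasmic reticulum counterparts spread the most.

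The cytosol and endoplasmic reticulum hold relatives of the same machines, and of 20 such genes 10 rose and 10 fell. The median log2 change of 0.46 lies in a gap between them, as those that fell were at -0.69 or below and those that rose at 1.61 or above. The counts of calls are near the shares over all genes tested (46.8% higher and 46.3% lower). With a log2 change of at least 1 also required, 10 were higher (27.8% of all genes tested) and 6 lower (25.5%). Those that rose were the SSA genes of cytosolic Hsp70, the endoplasmic reticulum Hsp70 gene KAR2, the J-domain genes YDJ1 and SIS1, the exchange factor genes FES1 and SSE1, and HSP104. SSA4 rose 62.9-fold and FES1, an exchange factor for cytosolic Hsp70, from 112 ± 1.8 to 2094 ± 0.983 CPM (SD, n = 2; edgeR adjusted p 1.0e-21). Exchange factor mRNAs thus went opposite ways, with FES1 and SSE1 of the cytosol higher and the mitochondrial MGE1 lower. The 10 that fell were the ribosome-bound Hsp70 genes SSB1 and SSB2 and all 8 genes of CCT, the cytosolic chaperonin (log2 change -2.11 to -0.69). HSP60, the mitochondrial chaperonin, was not called. The difference between these genes was not tested.

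Across the 4 libraries, the genes most alike to HSP60 and SSC1 were found by the Euclidean distance of log2 CPM centred on each gene's mean, among 5519 other genes whose mean log2 CPM was 3 or more. For HSP60 these were DAL82, an activator of nitrogen catabolic genes (distance 0.02), LYS4 of lysine synthesis (0.03) and NRS1 (0.03), none of them called. For SSC1 they were AIT1 (0.01), AYT1 (0.02) and SSA2 (0.04). SSA2, a cytosolic Hsp70 gene, was at 2003 ± 66.0 and 12922 ± 353 CPM, a log2 change of 2.69 beside 2.68 for SSC1. With 4 libraries in 2 groups, this measure mostly ranks genes by the size of their change.

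Transcripts running past a gene end would count for a neighbour on the same strand and, as reads did not mark strand, also for one on the opposite strand. The nearest annotated genes on each side lay 204 to 841 bases away, and 12 of these 16 were called higher (46.8% of all genes tested) and 4 lower (46.3%) in the mutant. Upstream of HSP60, the divergent gene LCB5, a sphingoid base kinase, had a log2 change of 2.78 where HSP60 had none that was called. TAH11, divergent from SSC1, rose too (log2 2.34). GNA1, which follows MDJ1 on the same strand after 238 bases, fell from 69.8 ± 0.271 to 31.6 ± 0.711 CPM (SD, n = 2). The same-strand genes after SSC1 and HSP78 rose, VPS55 after 452 bases (log2 1.39) and RKM4 after 333 bases (log2 1.35). Whether transcripts ran past the ends of these genes was not tested. YFL015C, upstream of MDJ1, went from 1.03 ± 0.310 to 14.5 ± 2.49 CPM. Both neighbours of MGE1 were higher in the mutant although MGE1 fell, and MKK1 before it was at 73.5 ± 0.0137 and 235 ± 13.2 CPM.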

How the data were processed

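RNA selected for poly(A) was sequenced as single reads of 50 bases from unstranded libraries, per the labels' protocols. The deposited values are raw counts of reads, whole numbers per gene and per intron, 1 file of each kind for a library. Tools named in the submitters' processing notes, with no role stated, are bcl2fastq 2.17, STAR 2.5, featureCounts and DESeq2 1.8.2, and the build is R64. The rule for reads that match several places or features is not stated there.

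The 8 genes, the lists and the motifs were chosen with earlier results of these data known. Named list genes are the 2 with the smallest adjusted p per list and those against the rest. The other list genes given with values were chosen after their values were seen. All list genes matched RefSeq, build R64.

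Replicates differed beyond counting noise (chi-square per degree of freedom 10.8 between wild-type libraries and 7.23 between mutant ones). Each was therefore kept as 1 sample and not as a second copy of the same library, which does not show that they came from separate cultures. Genes were tested in edgeR 4.0.16 (R 4.3.3) with filterByExpr, TMM scaling, robust quasi-likelihood F-tests on group alone, two-sided, and Benjamini-Hochberg adjustment at 0.05 over all genes tested. The SE of a log2 change was worked back from the test, as its absolute value divided by the square root of F. Intervals are at 95% and were built from that SE. In simulated counts (6530 genes), 50 genes were changed at each size and most genes were left unchanged. Of changes of 1.2-fold 84% were recovered, of 1.5-fold 94% and of 2-fold 98%, with 19 false calls among unchanged genes. In the data 93.1% of genes tested were called, so the simulation does not show how scaling and false calls behave with so many changes. Alternatives were other scalings, no filter, DESeq2 1.42.0, a replicate block, leaving out each library, and a wider upstream window. Figures used matplotlib 3.10.9.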

Additional observations from a re-analysis of the deposited data

How the results depend on the processing

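The 7 genes called among the 8 kept their direction and call under every alternative run. HSP60, not called, changed sign: its log2 change was 0.001 with a replicate block (adjusted p 0.99), 0.009 with total count scaling, 0.10 with upper quartile scaling (adjusted p 0.047), and -0.069 to 0.061 when each library was left out, with 0.061 without wild-type replicate 2 and 0.015 without mutant replicate 1. Upper quartile scaling shifted the median of all genes tested from 0.01 to 0.12. The list medians under it were -0.066 (the 8 genes), 0.67 (other mitochondrial chaperones), -1.39 (TIM23), -0.79 (TOM and SAM), -0.46 (TIM22, small TIM and MIA), -0.31 (proteases), -0.16 (iron-sulfur) and 0.56 (counterparts). Total count scaling gave -0.16 for the 8 genes and -1.48 for TIM23, and no filter -0.18 and -1.51. When each library was left out, the medians ran from -0.191 to -0.15 (the 8 genes), 0.48 to 0.655 (other mitochondrial chaperones), -1.511 to -1.483 (TIM23) and -0.353 to -0.174 (iron-sulfur). Counts of calls stayed within 1.5 times the main count. In 500 bases, 5 of the 8 genes held CCCCT, against 2 in the shorter window, and 2 held the stepped form, against 1. The replicate differences of the wild type and of the mutant had a correlation of -0.03 over genes. With 1 such difference per group, this cannot show whether libraries of the same replicate number were prepared together. The replicate block changed no call among the 8 genes. Over all genes tested it gave 3075 higher and 3034 lower calls, against 3070 and 3039. The lowest count behind any value of the 8 genes was 714 reads. With 2 libraries a group, the spread itself is poorly known.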
